A study of Mus musculus with 2 samples.

Results

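Genes of the pancreatic acinar cell were followed in pooled mouse liver. They comprise 35 digestive enzymes, granule proteins, inhibitors and transcription factors, picked by name for their role in that cell. The list was drawn up with earlier results of these data known. Of these, 30 were matched to a probe set (a group of short probes for the same transcript) that the platform annotation ties to 1 gene symbol, out of 18193 genes named in this way. Prss1, Try4, Try5, Pnlip and Amy2a5 had no such probe set and were not analysed here. Most of the 30 were several-fold brighter in the pool labelled Ad-PDK4 than in the pool labelled Ad-control.

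Acinar cells make up most of the pancreas and secrete its digestive juice. They store proteases, lipases, amylase and nucleases in zymogen granules, mostly as inactive precursors, and release them into the duct when food arrives. Transcription of the enzyme genes rests on PTF1, a complex of the basic helix-loop-helix factor PTF1A with a partner that binds an E-box and RBPJL, which binds a TC-box. Hepatocytes, the main cells of liver, are not known as a major source of these enzymes.

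Both groups were C57BL/6J mice aged 2 months that received 1000000000 plaque-forming units of adenovirus into the tail vein, and livers were taken on day 3. One group received the empty vector (Ad-control) and the other a vector that overexpresses PDK4 (Ad-PDK4), a kinase that inactivates the pyruvate dehydrogenase complex. RNA of 4 Ad-control livers and of 3 Ad-PDK4 livers was pooled by group, and 10 ug of each pool was labelled for 1 Affymetrix array. The design therefore has n = 1 per group, no uninfected liver, no measure of variation between animals and no p-value. In such bulk RNA, more cells of a type and more RNA per cell cannot be told apart.

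Signals were deposited as linear intensities for 45101 probe sets per array. The median non-control signal of each array (its 50th percentile) served as a floor, 93.4 for Ad-control and 99.9 for Ad-PDK4. A gene was read from its brightest probe set, and log2 differences (Ad-PDK4 minus Ad-control) were centred on the median probe set. Where only 1 array passed the floor, the difference is a bound, written "at least". The error scale is how far probe sets for 1 gene disagreed, with a pooled SD of 0.35 (log2) over 4326 genes. It leaves out error shared by a whole pool or array. Most hepatocyte genes were bright on both arrays, with albumin at 97338 and 101771, though Ass1 had 314 and 275. Of that list, 12 of 12 matched members lay within 2-fold. Several lay in the top part of the signal range (maxima 134096 and 136056), so this is a coarse check. The only Pdk4 probe set gave 234 and 177 (log2 difference -0.39), so it shows no overexpression. The sources used here do not say whether it reads the vector's transcript. The pools are called by their labels, and every direction assumes that the labels are right. Poly-A spike-in controls had a median log2 difference of -0.57 (12 probe sets) and hybridization controls one of -0.26 (18 probe sets).

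The upstream sequences of the acinar genes were searched for the motifs of the PTF1 complex. Whether these motifs have a part in the differences between the pools was not tested. RefSeq promoter windows (GRCm38.p6) were found for 28 of the 35 genes, and the 250 bases before each start site were searched on both strands. The E-box CACCTG occurred in 17 of 28 windows (60.7%), against 17.2% of all 32851 windows of the same length. TTCCCA, the core of the TC-box, also occurred in 17 of 28 (60.7%), against 21.6% of all windows. Both motifs were present in 9 of 28 (32.1%), against 3.91% of all windows. The related E-box CAGCTG was found in 6 of 28 (21.4%, all windows 13.0%), and TTTCCC, which can overlap TTCCCA by 5 letters, in 7 of 28 (25%, all windows 21.9%). The TATA box TATAAA was found in 9 of 28 (32.1%, all windows 12.4%). Genes of a family share sequence, as the trypsinogens do, so the windows are not independent. No spacing between the E-box and the TC-box core was required. A match describes letters and not factor binding, which was not measured.

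Windows are printed for the 4 genes above the floor in both pools and at least 4-fold brighter that hold both CACCTG and TTCCCA, and for Ctrb1, whose brightest probe set had the highest difference among the 19 members measured on both arrays. They lie at chr8:111691011-111691260 on the minus strand for Ctrb1, chr8:105933863-105934112 on the minus strand for Ctrl, chr4:141826006-141826255 on the minus strand for Cela2a, chr2:28563404-28563653 on the minus strand for Cel and chr6:41521526-41521775 on the plus strand for Prss2. Capitals mark the E-boxes CACCTG and also CAGCTG, the core TTCCCA and the TATA box TATAAA on either strand (CAGGTG is the other strand of the first E-box, TGGGAA that of the core), and the last base is the one before the start site.
Ctrb1: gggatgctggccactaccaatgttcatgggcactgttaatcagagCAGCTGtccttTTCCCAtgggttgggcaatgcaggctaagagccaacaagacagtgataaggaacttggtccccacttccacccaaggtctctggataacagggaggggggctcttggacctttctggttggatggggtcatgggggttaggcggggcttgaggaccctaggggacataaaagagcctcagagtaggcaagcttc
Ctrl: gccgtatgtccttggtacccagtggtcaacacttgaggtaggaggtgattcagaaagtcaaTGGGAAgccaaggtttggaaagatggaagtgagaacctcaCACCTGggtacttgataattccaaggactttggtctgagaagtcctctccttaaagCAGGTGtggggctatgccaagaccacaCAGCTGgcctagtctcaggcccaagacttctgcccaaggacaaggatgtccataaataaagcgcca
Cela2a: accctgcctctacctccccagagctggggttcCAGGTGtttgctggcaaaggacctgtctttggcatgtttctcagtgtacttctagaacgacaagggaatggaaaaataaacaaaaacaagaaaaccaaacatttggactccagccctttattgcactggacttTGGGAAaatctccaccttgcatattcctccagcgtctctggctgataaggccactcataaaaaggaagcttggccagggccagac
Cel: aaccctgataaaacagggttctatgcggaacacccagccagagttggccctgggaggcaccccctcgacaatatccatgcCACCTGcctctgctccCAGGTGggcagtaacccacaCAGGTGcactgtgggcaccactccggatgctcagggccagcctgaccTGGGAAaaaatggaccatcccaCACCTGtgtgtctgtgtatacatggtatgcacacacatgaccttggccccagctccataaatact
Prss2: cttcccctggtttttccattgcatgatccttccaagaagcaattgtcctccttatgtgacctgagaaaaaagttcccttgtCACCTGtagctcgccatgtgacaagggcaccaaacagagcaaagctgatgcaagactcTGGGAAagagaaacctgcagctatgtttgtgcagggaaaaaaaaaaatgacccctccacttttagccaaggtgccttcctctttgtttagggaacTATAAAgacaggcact
In Ctrb1 the E-box CAGCTG began 205 bases before the start site and TTCCCA 194 bases before it. The Cel window held 4 copies of CACCTG, counting both strands. In Prss2 the E-box began 169 and the TC-box core 111 bases before the start site. Of the genes with a window, 13 passed the floor on both arrays and were at least 4-fold brighter in the pool labelled Ad-PDK4. Among these 13, 7 held CACCTG (53.8%) and 9 held TTCCCA (69.2%). CACCTG was also present in Aqp12, which was dimmer in the pool labelled Ad-PDK4, and in Bhlha15 and Rbpjl, which could not be measured.

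**Figure D1:**
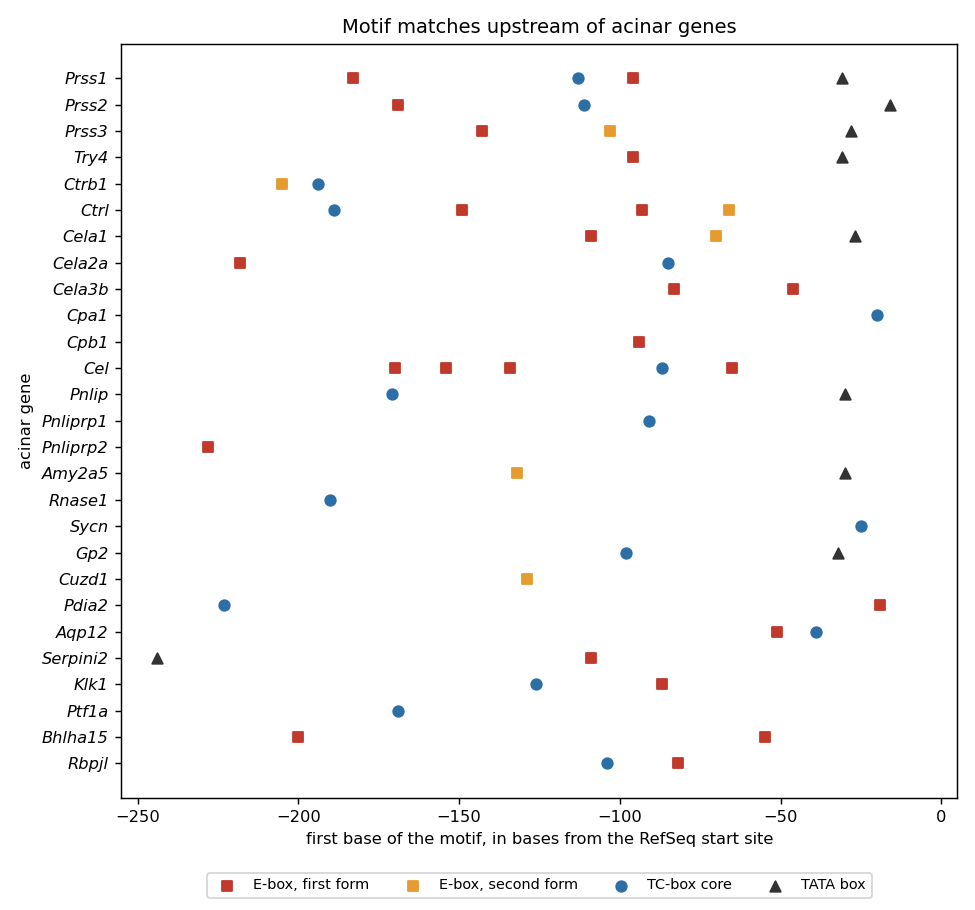
Positions of motif matches in the 250 bases before the RefSeq start site of the acinar genes with at least 1 match, 1 gene per line, with distance from the start site in bases on the horizontal axis. Red squares are CACCTG, orange squares CAGCTG, blue circles TTCCCA and black triangles TATAAA, on either strand. CACCTG is present in 17 of 28 windows, and its distance from the start site varies between genes.

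Trypsinogens are precursors of trypsin, the protease that activates the other zymogens in the gut lumen. Prss2, an anionic trypsinogen, had signals of 1325 in the pool labelled Ad-control and 8665 in the pool labelled Ad-PDK4, which is 6.60-fold (log2 difference 2.72). Its other 3 probe sets gave 1018 and 7038, 886 and 7677, and 1019 and 9656. All 4 were thus high in the same pool, between 2.72 and 3.26 on the log2 scale. Prss3 was under the floor in the pool labelled Ad-control (54.3) and above it in the other (138), at least 1.49-fold. Trypsinogens have many near-identical copies, so the single-symbol annotation does not show that a probe set reads 1 gene.

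Chymotrypsinogens give proteases that cut after bulky residues, and 2 of the 3 measured were at least 4-fold brighter in the pool labelled Ad-PDK4. Ctrb1 had signals of 608 and 6633, an 11.02-fold difference (log2 3.46), which placed it 7th of 10389 genes measured on both arrays. Ctrl, chymotrypsin-like, had 557 and 4957 (8.99-fold). Ctrc, which in humans also degrades trypsinogen, had 103 and 116. Both Ctrc signals lay just above the floor, and its log2 difference of 0.19 was smaller than the probe set SD.

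The 3 elastase genes, whose products cleave elastin and other proteins after small residues, were all bright in the pool labelled Ad-PDK4. Cela3b had signals of 1792 and 18087, a 10.2-fold difference. Its 3 further probe sets were dimmer, with signals of 331 and 3379, 376 and 3627, and 410 and 2408. Their log2 differences were 3.36, 3.28 and 2.57. The lowest of these differences came from the only probe set whose identifier has no suffix for probes shared between transcripts. Cela2a had 1181 and 9141 (7.82-fold). Cela1 had 2437 and 13380, or 5.55-fold (log2 2.47), the smallest difference among members with a control signal of at least 500. For the carboxypeptidases, which trim residues from the end of a peptide, the signals were 973 and 7579 for Cpa1 (7.87-fold). Cpb1 had 990 and 9686 (9.89-fold). Their log2 differences, 2.98 for the enzyme of aromatic and aliphatic ends and 3.31 for that of basic ends, were less than 1 probe set SD apart.

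Genes of fat digestion ran from 2.36-fold to 10.0-fold brighter in the pool labelled Ad-PDK4. Cel, the bile salt-activated lipase, had signals of 683 and 5168 (7.64-fold). Pnliprp1, a relative of pancreatic lipase with little lipase activity of its own, had 306 and 3036 (10.0-fold). Clps, the colipase that anchors lipase to fat droplets, had 586 and 4908 (8.46-fold), and its other probe set gave 8.35-fold. These 3 genes lay within the range of the proteases. Pla2g1b, the pancreatic phospholipase A2, had 139 and 681 (4.96-fold). A second probe set of Pla2g1b passed the floor only in the pool labelled Ad-PDK4 (34.1 and 315), and the other pair was under it on both arrays. Pnliprp2, a galactolipase, had 179 and 418, or 2.36-fold (log2 1.24). This was the smallest difference among the members above both floors and past 2-fold. Its other probe set was under the floor in the control pool (70.6) and at 333 in the other, at least 3.61-fold. Rnase1, the secreted ribonuclease that digests RNA, had 583 and 4298 (7.45-fold).

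**Figure D2:**
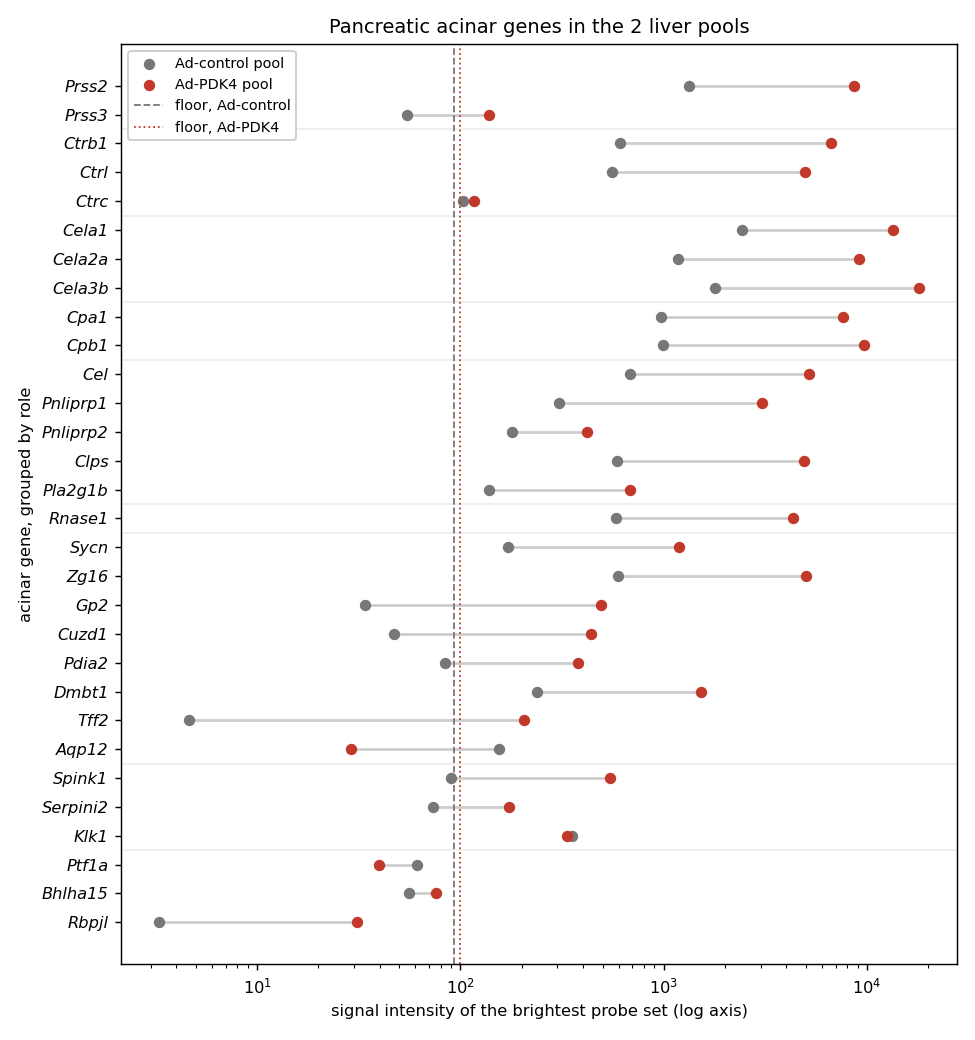
Signal intensity of the brightest probe set of the 30 matched acinar genes on the Ad-control array (grey) and the Ad-PDK4 array (red), on a log axis, with the floor of each array as a vertical line. A line joins the pair of values of each gene, n = 1 pool per group. Most enzymes lie well to the right of the floor in both pools, with the red point to the right of the grey one, while the 3 transcription factors lie left of both floors.

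Of 8 genes for proteins of the zymogen granule and the acinar surface, 7 were brighter in the pool labelled Ad-PDK4 and 1, Aqp12, was dimmer. Zg16, a lectin of the granule membrane, had signals of 594 and 5025 (8.55-fold), and its other probe sets gave 9.25-fold and 11.1-fold. Sycn (syncollin), which is needed for efficient granule exocytosis, had 172 and 1187 (6.99-fold), but 197 and 644 (3.30-fold) on its other probe set. Dmbt1, a scavenger receptor-type secreted protein that is also made in biliary and other epithelia, had 238 and 1519 (6.46-fold). All 3 passed the floor in both pools. Gp2, the major glycoprotein of the granule membrane, had 33.8 and 493, at least 5.33-fold. Cuzd1 had 47.1 and 437 (at least 4.73-fold), and Pdia2, the disulfide isomerase of the pancreas, had 83.8 and 380 (at least 4.11-fold). Each of these was under the floor in the control pool, so the fold follows the floor. Tff2, a trefoil peptide better known from stomach mucus, had 4.6 and 206 (at least 2.22-fold).

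Aqp12, an acinar water channel, was the exception in that group. Its signals were 155 in the pool labelled Ad-control and 28.8 in the pool labelled Ad-PDK4, which is at least 1.53-fold lower. It was the only matched member above the floor in the control pool alone.

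Among inhibitors, Spink1, the trypsin inhibitor that is packed with trypsinogen, had signals of 90.3 and 542, at least 5.86-fold. Serpini2 had 72.9 and 173 (at least 1.87-fold). Klk1, tissue kallikrein, depended on the probe set. The brightest gave 355 and 336 (log2 -0.06), while the others gave 115 and 469 (4.13-fold), 51.4 and 714 (at least 7.72-fold), and 32.5 and 1434 (at least 15.5-fold). The probe sets of Klk1 disagree, and its direction is not settled.

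The acinar transcription factors were not measurable. Ptf1a had signals of 61.1 and 39.6, Bhlha15 (Mist1, which shapes the secretory cell) 55.7 and 75.9, and Rbpjl 3.3 and 31.0. All 3 genes were under the floor on both arrays, on 5 of 5 probe sets, so no difference can be given.

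Over the list, 19 genes passed the floor on both arrays, 7 on the Ad-PDK4 array alone, 1 on the Ad-control array alone and 3 on neither. By fold or bound, 22 were at least 2-fold brighter in the pool labelled Ad-PDK4, against a background of 3.58% of 12121 genes, and 20 at least 4-fold, against 0.767%. None (0) was at least 2-fold dimmer, against 0.891%, or 0.732% of genes above both floors. On genes above the floor on both arrays alone, 17 of 19 members were at least 2-fold brighter (background 2.70% of 10389) and 16 at least 4-fold (background 0.578%). The genes nearest the 2-fold limit were Tff2 and Pnliprp2 inside it and Serpini2 outside it. A gene that passed the floor in 1 pool only had to differ, so the counts over genes above both floors are given as well. Because the list was drawn up with earlier results of these data known, the shares describe it and are no independent test. With the floor at the 70th percentile, Pnliprp2 (log2 0.58), Gp2 (0.82), Cuzd1 (0.65), Pdia2 (0.45) and Spink1 (0.96) had bounds under 2-fold, and Tff2 could not be measured.

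The median log2 difference of the 19 genes was 2.93 (7.64-fold), against 0.01 for all genes above the floor on both arrays. Its spread was wide (SD 1.01), with Klk1 and Ctrc near 0. Among the 17 that were at least 2-fold brighter the SD was 0.52. For the 12 of these with a control signal of at least 500, a limit chosen after their values were seen, differences ran from 2.47 to 3.46 with an SD of 0.27. That spread is smaller than the probe set SD of 0.35, so their order by fold is mostly not resolved, and 10 of the 12 lay within 1 probe set SD of their median of 3.03 (8.16-fold). The members past 2-fold that lay farthest below this median, Pnliprp2 and Pla2g1b, had control signals of 179 and 139. Cela3b and Zg16 reached a control signal of 500 on their brightest probe set only. Signals of the 19 genes kept nearly the same order on both arrays (Spearman's rho 0.95, Pearson's r 0.90 on the log2 scale). The same values were 0.96 and 0.97 over all 10389 genes, and in both cases the arrays share each probe set's own brightness. Signals were not confined to the pool labelled Ad-PDK4, since 12 members had a signal of at least 500 in the other pool. The summed signal of the 30 matched genes was 14461 and 107364.

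**Figure D3:**
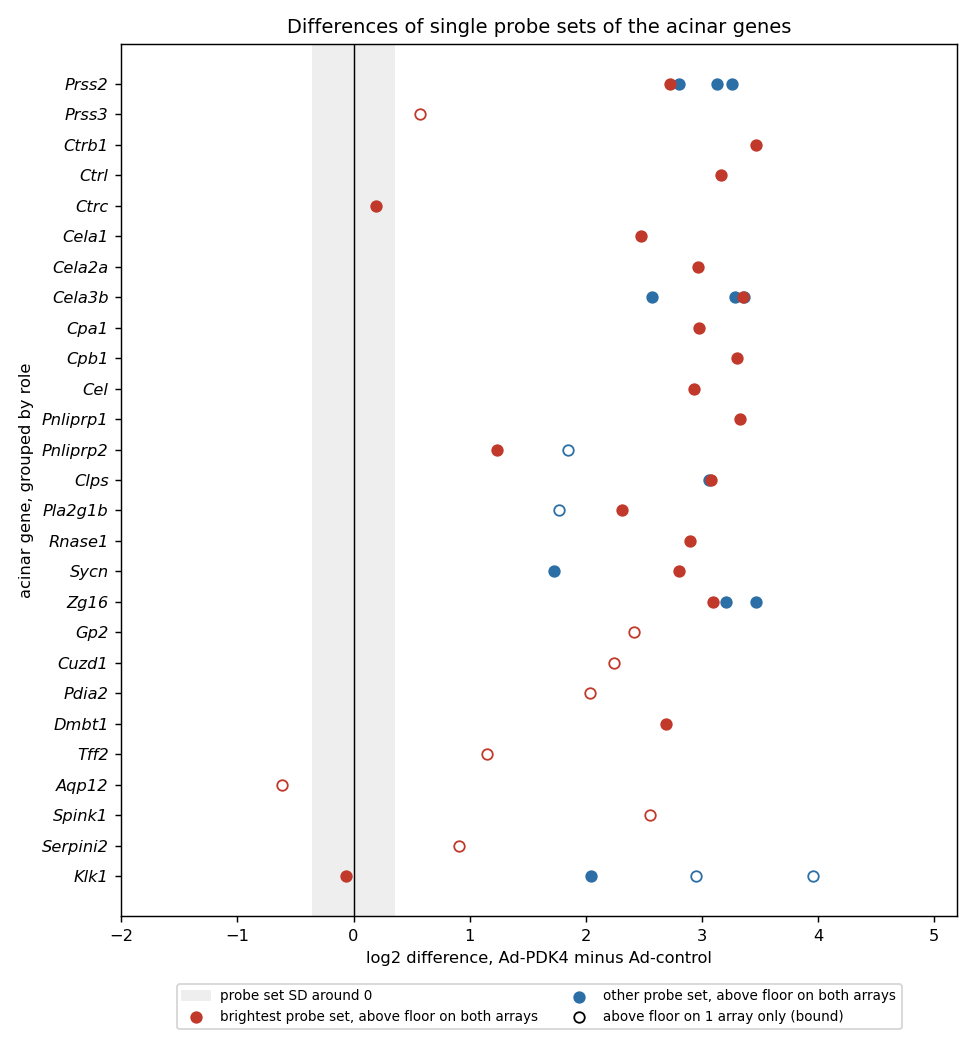
Log2 difference (Ad-PDK4 minus Ad-control) of each probe set of the acinar genes above the floor on at least 1 array, grouped by role. Filled points are probe sets above the floor on both arrays, open points are bounds, red marks the brightest probe set of a gene, and the grey band is 1 probe set SD (0.35) on either side of 0. Of 30 probe sets above both floors, 28 were at least 2-fold brighter in the pool labelled Ad-PDK4.

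In the upper part of the brightness range, most genes past 4-fold were members, but the Ad-PDK4 signal helps to set that range. At a mean log2 signal of at least 11, a limit set after seeing the plot of difference against brightness, 2274 genes were measured and 7 were at least 4-fold brighter in the pool labelled Ad-PDK4. Members make up 6 of these 7, which is every member in that range, and the other is 2210010C04Rik, another trypsinogen gene (signals 2846 and 20359, 7.23-fold). The mean includes the Ad-PDK4 signal, so a member could enter the range through the pool where it was bright. In the pool labelled Ad-control, the 6 had signals from 973 (Cpa1) to 2437 (Cela1). Cela3b was in that range on its brightest probe set only. The count is therefore a description and lends the acinar result no weight. Of all 60 genes above the floor in both pools and at least 4-fold brighter, 16 were members and 3 were other acinar genes. A list of 12 cell cycle genes gave 7, and 34 were in none of these lists. Many of the 34 also act in cell division or DNA replication, such as Cdca3, Mad2l1, Cenpa and Mcm2. The 7 is therefore not a full count of such genes, and these counts do not rank the groups by size. Among the 20 genes with the highest differences 9 were members, and among the first 50 there were 16. The 11 matched cell cycle genes were all at least 2-fold brighter in the same pool, with a median log2 difference of 3.27 over 7 genes and summed signals of 1740 and 22598. Their part in the acinar result was not tested.

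**Figure D4:**
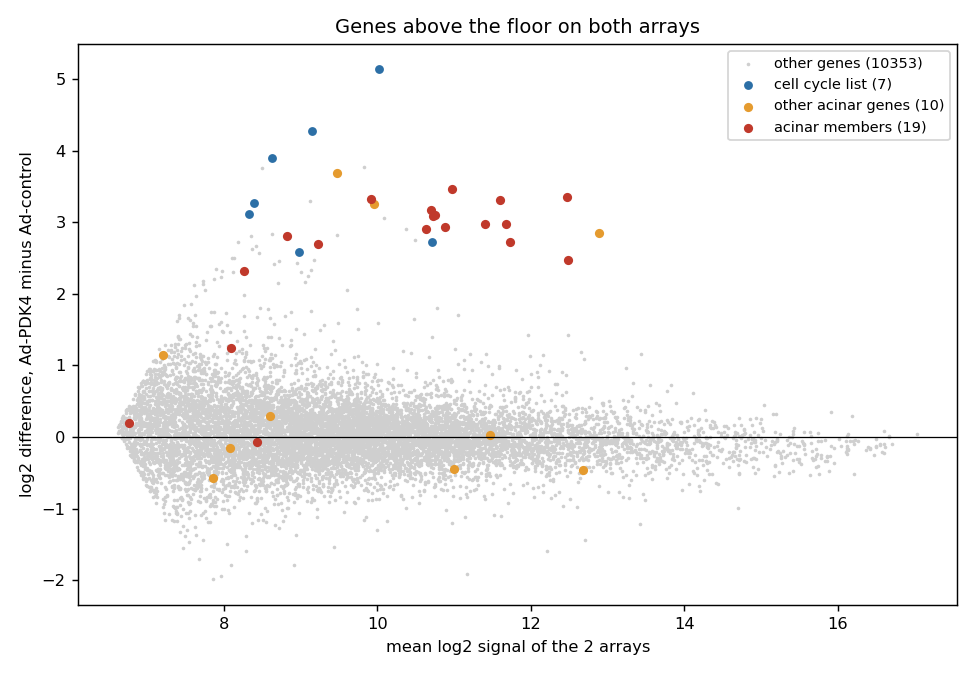
Log2 difference (Ad-PDK4 minus Ad-control) against mean log2 signal for 10389 genes above the floor on both arrays. Grey points are other genes, blue the cell cycle list, orange other acinar genes and red the 19 acinar members. At a mean of 11 or more, the 7 genes past a difference of 2 are 6 members and 1 other acinar gene. The mean includes the Ad-PDK4 signal, which helps to place these genes in that range.

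Of 26 further acinar genes listed, 17 were matched, 10 passed the floor on both arrays and 4 of these were at least 2-fold brighter in the pool labelled Ad-PDK4. These were 2210010C04Rik, Reg2 (199 and 2530, 12.8-fold) and Reg1 (323 and 3044, 9.51-fold), both small lectin-like proteins of pancreatic juice, and Reg3d (100.1 and 219, 2.21-fold). Reg3a, of the same family, was under the floor on both arrays (2.5 and 36.2). The other 6 genes above both floors lay between -0.57 (Gata4) and 0.30 (Rab3d). Rab27b, a small GTPase of exocytosis, passed the floor only in the pool labelled Ad-PDK4 (93.1 and 123.5, at least 1.34-fold). Vamp8, a SNARE of granule fusion, had a log2 difference of -0.47, and Nr5a2, a nuclear receptor of acinar cells and hepatocytes, -0.44. The list's median was 0.16. Some of the genes behind it were bright in both pools, such as Vamp8 (7785 and 5572) and Aqp8 (2820 and 2851). In total, 6 genes of the list, among them Reg3a and the cholecystokinin receptor Cckar (2.4 and 9.1), were under the floor on both arrays. The secretory pathway list, genes for folding and export in the endoplasmic reticulum that acinar cells use heavily, had 0 of 14 at least 2-fold apart. The 13 above both floors had a median of -0.10, from Dnajc3 (-0.53) to Creld2 (0.40), and Sdf2l1 passed only in the pool labelled Ad-control (152 and 79.6, at least 1.51-fold lower). Hepatocytes express these genes too. Of 5 secretagogue receptors, 2 passed the floor on both arrays, Vipr1 (0.58) and Chrm1 (-0.21), and none (0) was 2-fold apart. Over all 12121 measured genes, 3.58% were at least 2-fold brighter and 0.891% at least 2-fold dimmer. A count of 0 in lists this short therefore says little.

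Markers of the other pancreas cells were mostly too dim to read. Of 16 matched islet genes 0 passed the floor on both arrays and 13 passed on neither, including Gcg (5.6 and 7.2), Ppy and Iapp. Ins2, an insulin gene, had 16.3 and 156 (at least 1.68-fold) and Chgb, a granin, 6.5 and 103 (at least 1.11-fold). Ptprn, a dense-core granule protein, had 131 and 47.5 (at least 1.30-fold lower). The summed islet signal was 512 and 773, and without Ins2 it was 496 and 618. Most of it came from signals under the floor, so the sums cannot be read as a difference. Of 10 matched duct genes, 5 were under the floor on both arrays, among them Krt7, Sox9 and Cftr. Krt19 had 123 and 16.9 (at least 1.22-fold lower), Cldn4 117 and 90.2 (at least 1.16-fold lower) and Epcam a log2 difference of -0.52, whereas Car2, a carbonic anhydrase of duct and blood cells, had 515 and 1442 (2.83-fold). Duct markers do not separate pancreatic from bile ducts. Their summed signal was 1496 and 2303, and without Car2 it was 981.5 and 861.

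Markers of organs beside the pancreas gave the following. Of 12 small intestine genes, 7 passed the floor on neither array, including Vil1, Lct, Muc2 and Cdx2. The summed signal was 16555 and 20554, most of it from Fabp2, Lyz1 and Apoa4, which liver tissue also holds. Without Fabp2 the sum was 8165 and 8222. Reg3b, in that list and also made by acinar cells under stress, was 2.06-fold brighter (97.0 and 198). Fabp2 differed by 0.57. Alpi, the intestinal alkaline phosphatase, had 144 and 28.1 (at least 1.42-fold lower). Of 10 stomach genes, 0 were 2-fold apart and 5 passed on neither array, with sums of 1382 and 1627 (779 and 763 without Tff1). Their ends above both floors were Tff1 (0.53) and Gkn3 (-0.18). Adipocyte genes had 1 of 6 past 2-fold, Cidec (73.1 and 237, at least 2.56-fold), a lipid droplet protein that hepatocytes can also make. Adipoq, which marks fat cells, had 193 and 207, and the list summed to 101452 and 94021, nearly all from Car3. B cell genes had 0 of 7 past 2-fold and sums of 567 and 530. With 3.58% of all measured genes at least 2-fold brighter and 0.891% dimmer, a 0 in the stomach or B cell list says little. Skeletal muscle genes were lower in the pool labelled Ad-PDK4, with 4 of 12 at least 2-fold lower, a median of -0.84 and sums of 7328 and 4112. The lowest were Tnnt3 (-1.44) and Myh1 (-1.23), and the highest Atp2a1 (-0.01) and Myh4 (-0.22). The part of any of these cells or tissues in the acinar result was not tested. No array of pancreas was used here, so whether the members' order is that of pancreas tissue was not tested either.

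**Figure D5:**
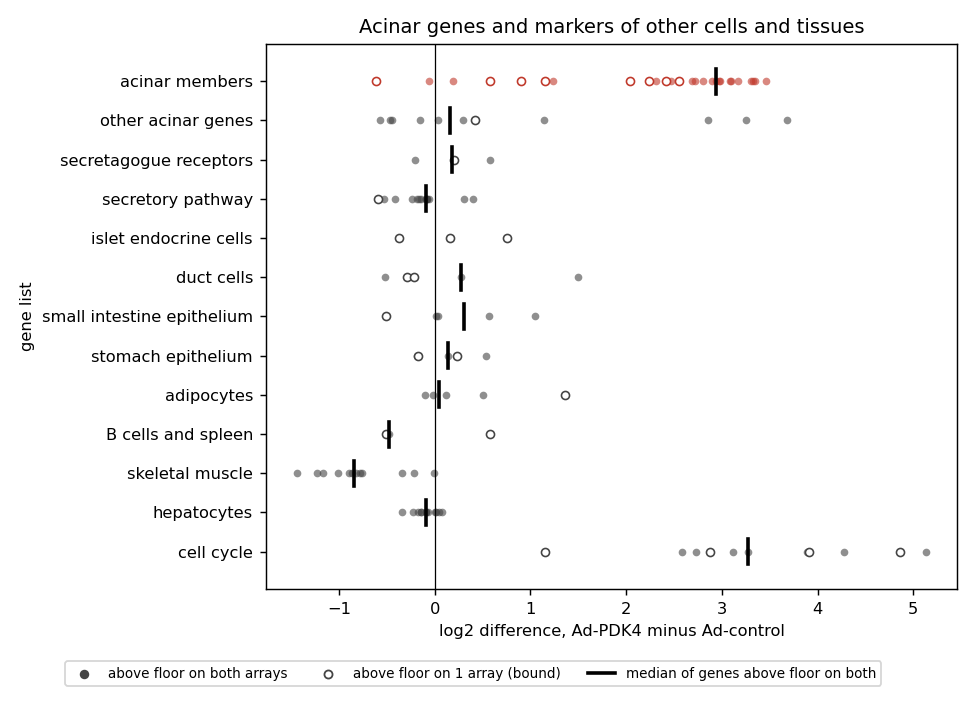
Log2 difference (Ad-PDK4 minus Ad-control) of each gene in the acinar list (red) and in 12 lists of other genes (grey), with open points for bounds and a black bar for the median of genes above the floor on both arrays. The acinar median (2.93) and the cell cycle median (3.27) lie far to the right, skeletal muscle lies to the left (-0.84), and islet genes have no median because 0 passed the floor on both arrays.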

How the data were processed

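Per the labels, RNA from livers of each group was pooled, labelled with biotin by the Affymetrix procedure and hybridized to 1 array per group. The deposited values are linear signal intensities per probe set. Both arrays have the same mean, 500.0, once 2% of values are trimmed at each end, as scaling to a common target gives. How signals were summarised and background-corrected is not given in the sources used, and depth does not apply to arrays, whose number limits the precision.

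Probe sets were named from the platform annotation where it gives 1 symbol, updated by Entrez identifier. After 64 control probe sets were set aside, the 50th percentile of each array was the floor, log2 differences were centred on the median (a shift of -0.01), and each gene took its brightest probe set by mean log2 signal. A gene above the floor on 1 array was given as a bound. No test was run with 1 array per group. The calculations were tested on simulated data (Python 3.11.15, numpy 2.4.6, pandas 2.3.3, statsmodels 0.14.6). Members, the 12 lists of other genes and all limits were chosen with earlier results of these data known. Every member was named, and other lists by their highest and lowest genes, bounds of at least 2-fold, or, chosen after seeing values, defining markers. Motif windows came from RefSeq. In all, 9 alternatives were tried for the floor, centring, probe set choice and log scale.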

Additional observations from a re-analysis of the deposited data

How the results depend on the processing

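All 22 members at least 2-fold brighter in the pool labelled Ad-PDK4 stayed above 0 wherever they could be measured under the 9 alternatives. Where a member was under the control floor, its bound could not fall below 0, so that sign is no check. With log2 of signal plus 100 no floor was used, and all 22 were above 0. The 22 kept 2-fold under all but these: 16 of 21 when the floor was the 70th percentile, and 21 of 22 with log2 of signal plus 100. Without _x_at, _s_at and _a_at probe sets, 16 of the 22 had a probe set, all past 2-fold. Over all member values and alternatives, 204 moved by less than the probe set SD and 27 by more. Members at least 2-fold lower numbered 1 (Aqp12, log2 -1.99) with the floor at the 30th percentile. With log2 of signal plus 100 the members' median was 2.25, the cell cycle median 2.54 and the B cell median -0.026. Without suffixed probe sets the medians were 0.59 for other acinar genes, 0.89 for duct cells and 3.89 for the cell cycle. At the higher floor they were 0.90 for duct cells, 0.55 for stomach and 2.74 for the cell cycle. As the median over measured probe sets, duct cells gave -0.19 and Klk1 0.99, and Klk1 was 2.05 without suffixed probe sets, 3.53 with log2 of signal plus 100 and 0.03 with centring on hepatocyte genes. That centring moved the median of all genes to 0.11. The causes were not tested. No paired analysis was possible because each group is 1 array. Signals near the floor limit what can be read of Ctrc, the transcription factors and the islet and duct markers.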
